A study of Mus musculus with 11 samples.

Results

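The CXC chemokines are small secreted or membrane-bound proteins that attract leukocytes, and 9 of their genes were followed here: Cxcl1, Cxcl2, Cxcl3, Cxcl5, Cxcl9, Cxcl10, Cxcl11, Cxcl14 and Cxcl16. Each was read from the 1 probe set of the deposited table whose platform annotation gives that gene alone, so all 9 of 9 were found, among 18755 genes measured. Whole-transcript arrays were used on macrophages derived from the marrow of wild-type mice of the C57Bl/6 strain. The cells spent 1 week in culture with macrophage colony-stimulating factor (mCSF, 5 ng/ml), were re-plated and were used 24 hours later. In the LPS plus PGE group (4 arrays) they received 100 ng/ml lipopolysaccharide (LPS, from the outer membrane of Gram-negative bacteria and recognised by Toll-like receptor signalling) and prostaglandin E (PGE, a lipid mediator of inflammation) at 10 µM, both for 1 hour, in the LPS group (3 arrays) the same dose of LPS alone for 1 hour, and in the untreated group (4 arrays) neither. All groups share the strain and the culture in mCSF. Of 12 arrays made, 1 of the LPS group was left out by the authors for quality. The labels name neither the kind of prostaglandin E nor whether replicates were separate mice, so p-values measure only the spread between these samples, which may be technical.

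CXC ligands are named for a pair of cysteines parted by 1 residue near the start of the mature protein. Cxcl1, Cxcl2, Cxcl3 and Cxcl5 belong to the ligands of Cxcr2, which draw neutrophils to inflamed tissue. Cxcl9, Cxcl10 and Cxcl11 bind Cxcr3 on activated T and NK cells and are known for their response to interferons. Cxcl16 is made as a membrane protein that is also shed and binds Cxcr6, and Cxcl14 is a ligand made at rest by many epithelia. In macrophages, LPS is known to act on many of these genes through the transcription factor NF-kB and, for Cxcl10, also through interferon regulatory factors. The Cxcl11 gene is annotated by RefSeq as a transcribed pseudogene in the C57BL/6J genome, a strain known to carry a frameshift there, so its values below are those of a transcript.

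The sequences just before the starts of these genes are shown because those of Cxcl1, Cxcl2 and Cxcl3, which rose with LPS, share a short stretch. RefSeq promoter sequences (assembly GRCm38.p6) matched 6 of the 9 genes. The Cxcl14 gene is annotated on chr13 from 56288643 to 56296811, minus strand. Its window therefore lies inside the annotated gene, before a start further in, and not upstream of the gene. The 250 bases before each start are printed 5′ to 3′ on the gene's strand, with capitals for every match, on either strand, to GGGNNNTTCC, a form of the NF-kB motif, or to GAAANNGAAA, a form of the interferon-stimulated response element.
Cxcl1, chr5:90890995-90891244, plus strand: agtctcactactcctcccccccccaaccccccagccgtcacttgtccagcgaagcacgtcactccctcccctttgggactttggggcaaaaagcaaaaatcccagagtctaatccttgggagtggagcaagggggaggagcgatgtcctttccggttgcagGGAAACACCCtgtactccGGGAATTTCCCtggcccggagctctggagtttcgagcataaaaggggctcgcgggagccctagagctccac
Cxcl2, chr5:90903649-90903898, plus strand: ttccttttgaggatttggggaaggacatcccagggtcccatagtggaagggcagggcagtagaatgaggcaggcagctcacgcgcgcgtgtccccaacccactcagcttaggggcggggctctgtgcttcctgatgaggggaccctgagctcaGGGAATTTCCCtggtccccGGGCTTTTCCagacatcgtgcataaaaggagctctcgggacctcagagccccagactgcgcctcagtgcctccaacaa
Cxcl3, chr5:90785851-90786100, plus strand: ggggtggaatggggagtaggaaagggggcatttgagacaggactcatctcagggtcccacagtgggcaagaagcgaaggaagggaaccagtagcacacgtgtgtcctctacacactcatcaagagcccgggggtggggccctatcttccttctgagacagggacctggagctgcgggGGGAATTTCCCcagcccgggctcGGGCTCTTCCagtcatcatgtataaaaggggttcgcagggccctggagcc
Cxcl10, chr5:92348890-92349139, minus strand: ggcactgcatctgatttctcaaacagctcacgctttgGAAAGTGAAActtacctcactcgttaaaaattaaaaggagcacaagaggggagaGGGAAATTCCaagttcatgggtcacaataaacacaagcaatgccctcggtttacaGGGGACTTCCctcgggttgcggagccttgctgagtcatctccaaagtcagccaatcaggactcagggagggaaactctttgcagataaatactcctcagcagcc
Cxcl9, chr5:92328080-92328329, minus strand: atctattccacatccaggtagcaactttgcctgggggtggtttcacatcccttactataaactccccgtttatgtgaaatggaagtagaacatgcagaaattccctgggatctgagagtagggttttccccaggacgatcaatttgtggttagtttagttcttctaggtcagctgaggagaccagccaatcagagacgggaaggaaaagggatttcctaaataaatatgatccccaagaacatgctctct
Cxcl14, chr13:56296552-56296801, minus strand: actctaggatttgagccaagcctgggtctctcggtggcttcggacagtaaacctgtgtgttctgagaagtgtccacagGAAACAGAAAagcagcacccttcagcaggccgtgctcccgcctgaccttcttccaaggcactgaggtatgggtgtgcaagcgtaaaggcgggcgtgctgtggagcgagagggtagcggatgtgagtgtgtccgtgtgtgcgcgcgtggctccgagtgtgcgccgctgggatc

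The form of the first motif that the windows of Cxcl1, Cxcl2 and Cxcl3 share, GGGAATTTCC, stood at -71 to -62 from the start of Cxcl1, at -97 to -88 in Cxcl2 and at -73 to -64 in Cxcl3. The letters were taken from these windows, so their presence there is no test. In each, a match to GGGNNNTTCC on the other strand overlaps them, 1 base further on. Of 32851 windows of 250 bases before RefSeq starts, 28 (0.0852%) held GGGAATTTCC on either strand. By the choice of letters, 3 of the 28 were those of Cxcl1, Cxcl2 and Cxcl3. These 3 windows were also the most alike of the 6, with 50.2 to 56.1% identity over aligned columns. GGGNNNTTCC was found in 4.65% of all windows. Cxcl10 held it at -159 to -150 and at -104 to -95, and it also had GAAANNGAAA at -213 to -204, which 2.98% of windows had, and the AP-1 motif TGANTCA at -74 to -68 (6.75% of windows). The cyclic AMP response element TGACGTCA was in 1.55% of windows and in none of the 6. The window of Cxcl9 held neither of the capitalised motifs, and that of Cxcl14, inside the annotated gene, held only GAAANNGAAA. A match is a stretch of letters, and binding was not measured.

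Values are log2 intensities, on which 1 unit means 2-fold, and each change is a log2 fold change ± SE from a limma fit to all 11 arrays and all genes, with Benjamini-Hochberg adjusted p-values and a threshold of 0.05. Intensity also depends on the probes, so levels are compared between arrays and not between genes. Correlations across genes, which are not independent replicates, were 0.996 to 0.998 for pairs of arrays within a group and 0.980 to 0.993 for pairs from separate groups. Precision is set by the number of arrays. The macrophage label was checked against 9 markers, among them Adgre1, Csf1r and Lyz2. None lay below the lower quartile of genes on all arrays. The same was so for the 3 platelet and the 5 dendritic markers, and the other lists had 1 to 3 such genes. That count alone therefore does not set macrophages apart. The log2 of the summed intensities of the 9 was 15.24 to 15.30 in LPS plus PGE, 15.15 to 15.24 in LPS and 15.09 to 15.14 in untreated arrays. The log2 of summed intensities of neutrophil, platelet, dendritic, T and NK, B, stromal and endothelial markers lay between 5.98 and 7.97 on all arrays. Such a sum grows with the number of markers and depends on their probes, so lists were not ranked by it. Of these 7 lists, the dendritic cell markers had 2 rises among 5 and the endothelial ones 1 among 4 in LPS plus PGE against untreated. The stromal list had 1 fall among 6 in LPS against untreated, and against LPS alone PGE gave 1 rise each in the dendritic (Ccr7, a migration receptor), stromal and macrophage (Cd14, the LPS co-receptor) lists. The macrophage list otherwise had only the rise of Cd14 in each comparison with untreated cells, and no other marker passed. The part of these shifts in the results below was not tested. In such bulk samples, fewer cells of a type and less RNA per cell cannot be told apart.

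The first comparison asked which CXC chemokine genes an hour of LPS alters. LPS raised 7 of the 9 genes, and 6 of them at least 2-fold: Cxcl2 by 130-fold, Cxcl1 by 80.0-fold and Cxcl10 by 50.3-fold, and Cxcl9, Cxcl11 and Cxcl3 by 2.86- to 3.60-fold. Cxcl16, already bright at rest, rose by 1.32-fold, and Cxcl5 and Cxcl14 did not pass the test. Of all 18755 genes, 13.2% passed, 6.55% with a rise, and 1.57% rose at least 2-fold. The arrays of the 7 genes did not overlap between LPS and untreated cells, which was so, in the upward direction, for 10.5% of all genes. The median change of the 9 genes was 1.68, against -0.015 over all genes.

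**Figure D1:**
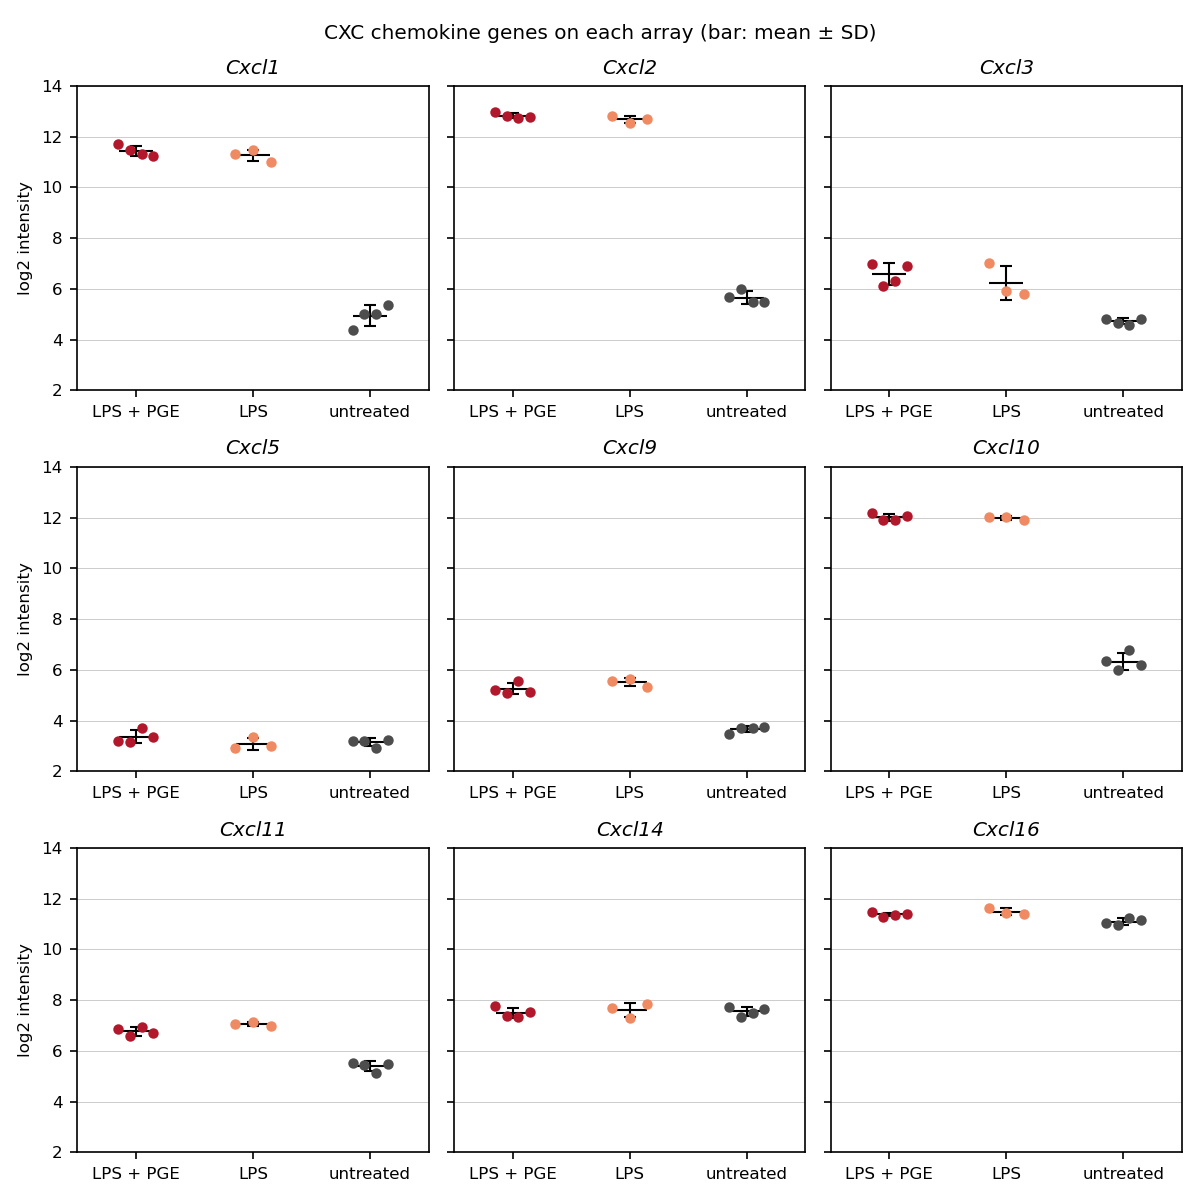
Log2 intensity of each of the 9 CXC chemokine genes (vertical axis) on every array (points) of the LPS plus PGE, LPS and untreated groups, with the mean ± SD of each group (bars). Cxcl1, Cxcl2 and Cxcl10 lie above 11 on all treated arrays and below 7 on all untreated ones, while the points of Cxcl5 and Cxcl14 overlap between all groups.

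Among the ligands of Cxcr2, Cxcl2 (also known as MIP-2) had the largest change. It read 12.97, 12.81, 12.74 and 12.77 on the LPS plus PGE arrays, 12.82, 12.55 and 12.69 on the LPS arrays and 5.67, 6.01, 5.49 and 5.48 on the untreated arrays. The treated arrays lay together, far above the untreated ones. The change with LPS was 7.03 ± 0.12 (limma adjusted p = 2.50e-12), a rise that only 1 other gene exceeded, so that Cxcl2 ranked at 2 of 18755.

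Cxcl1 (also known as KC) is the other major neutrophil attractant of this group in mice. Its values were 11.71, 11.49, 11.33 and 11.25 on the LPS plus PGE arrays, 11.32, 11.47 and 11.01 on the LPS arrays, and 4.39, 5.00, 5.01 and 5.38 on the untreated arrays. The treated arrays lay far above the untreated ones. The SD was 0.20 in LPS plus PGE (n = 4), 0.23 in LPS (n = 3) and 0.41 in untreated arrays (n = 4). The rise with LPS was 6.32 ± 0.20 (limma adjusted p = 3.34e-10), which ranked at 5.

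Cxcl3, their close relative, rose by a smaller fold, with treated arrays that spread widely. It read 6.99, 6.10, 6.32 and 6.92 with LPS plus PGE, 7.03, 5.90 and 5.81 with LPS, and 4.83, 4.66, 4.59 and 4.83 in untreated cells. LPS replicate 1 stood more than 1 log2 unit above the other LPS arrays, and the SD of that group was 0.68 (n = 3), against 0.12 in untreated cells (n = 4). The rise with LPS was 1.52 ± 0.28 (limma adjusted p = 0.00312), and it ranged from 1.13 to 1.74 when single arrays were left out or the values were processed otherwise. Probe sequences were not used here, so signal shared between these related transcripts was not tested.

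Cxcl5, a neutrophil attractant best known from epithelial and stromal cells, stayed dim. Its values were 3.20, 3.16, 3.72 and 3.37 with LPS plus PGE, 2.91, 3.36 and 3.01 with LPS, and 3.20, 3.20, 2.91 and 3.25 in untreated cells. All 11 values lay below the lower quartile of the genes on their arrays (4.00 to 4.05 in LPS plus PGE, 3.80 to 3.87 in LPS and 3.82 to 3.90 in untreated arrays), and the groups overlapped. The difference between LPS and untreated cells was -0.05 ± 0.15 (95% interval -0.36 to 0.27, limma adjusted p = 0.885). Background was not measured, so a level this low could not be told from none.

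Of the 3 ligands of Cxcr3, Cxcl10 (also known as IP-10) responded most. It read 12.21, 11.92, 11.91 and 12.07 with LPS plus PGE, 12.03, 12.03 and 11.90 with LPS, and 6.36, 5.98, 6.77 and 6.21 in untreated cells. The LPS plus PGE and LPS arrays overlapped, and the LPS arrays were the tightest group, with an SD of 0.08 (n = 3). The rise with LPS was 5.65 ± 0.15 (limma adjusted p = 7.94e-11), at rank 8 of all genes.

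Cxcl9 (also known as MIG), a ligand best known for its response to interferon-gamma, started from a low level. Its values were 5.22, 5.11, 5.57 and 5.11 with LPS plus PGE, 5.58, 5.63 and 5.33 with LPS, and 3.49, 3.72, 3.69 and 3.77 in untreated cells. Each untreated value was under its array's lower quartile, and the rise with LPS was 1.85 ± 0.12 (limma adjusted p = 3.67e-07). With no background measured, the untreated level, and with it the size of the rise in both treated groups, is uncertain. The Cxcl11 transcript read 6.88, 6.57, 6.93 and 6.71 with LPS plus PGE, 7.07, 7.15 and 7.00 with LPS, and 5.53, 5.45, 5.12 and 5.49 in untreated cells. Its rise with LPS was 1.68 ± 0.11 (limma adjusted p = 4.48e-07).

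The remaining pair, Cxcl16 and Cxcl14, read above the lower quartile of genes at rest and moved little. Cxcl16, which also acts as a scavenger receptor for oxidised lipoprotein, read 11.46, 11.29, 11.37 and 11.41 with LPS plus PGE, 11.65, 11.43 and 11.41 with LPS, and 11.05, 10.95, 11.24 and 11.15 in untreated cells. No treated array fell within the untreated range, and the rise with LPS was 0.40 ± 0.08 (limma adjusted p = 0.00801). Cxcl14 read 7.77, 7.36, 7.34 and 7.55 with LPS plus PGE, 7.68, 7.29 and 7.84 with LPS, and 7.75, 7.32, 7.50 and 7.65 in untreated cells. Its groups overlapped fully, and the LPS difference was 0.05 ± 0.15 (95% interval -0.27 to 0.37, limma adjusted p = 0.878).

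The second comparison asked what the combined stimulus alters against untreated cells, and it shares the untreated arrays with the first. Again 7 of 9 genes rose, the same 7, and 6 of them at least 2-fold, where 31.7% of all genes passed, 13.8% with a rise and 1.86% with a rise of at least 2-fold. The arrays of the 7 genes did not overlap with the untreated ones, as for 13.7% of all genes in the upward direction. With all array medians made equal, 5747 of 18755 genes rose and 1724 fell, in place of 2587 and 3359; the split was 2596 and 2206 after quantile and 2129 and 1788 after cyclic loess normalization. Under each, 7 of the 9 CXC genes passed. Cxcl2 rose by 7.16 ± 0.11 (143-fold), Cxcl1 by 6.50 ± 0.18 (90.5-fold) and Cxcl10 by 5.69 ± 0.14 (51.7-fold), with limma adjusted p-values from 5.43e-13 to 7.47e-11. The smaller rises were 1.86 ± 0.26 for Cxcl3, 1.59 ± 0.11 for Cxcl9 and 1.38 ± 0.10 for Cxcl11. Cxcl16 rose by 0.28 ± 0.08 (limma adjusted p = 0.0176), and that call was lost without LPS plus PGE replicate 1 (adjusted p = 0.0518). Cxcl5 differed by 0.22 ± 0.13 (95% interval -0.07 to 0.52, limma adjusted p = 0.225) and Cxcl14 by -0.05 ± 0.14 (95% interval -0.35 to 0.24, limma adjusted p = 0.792).

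The third comparison asked whether PGE alters the response of these genes to LPS. None of the 9 genes passed the limma threshold in LPS plus PGE against LPS, where 24.7% of all genes did, and 2 had an unadjusted p below 0.05, both with lower values with PGE, as 39.3% of all genes had in either direction. The calls over all genes split into 2225 rises and 2416 falls, or 5850 and 718 with equal array medians. The 3 genes that LPS raised most are given with the interval of their difference. Cxcl10 differed by 0.04 ± 0.15 (limma adjusted p = 0.859), so that its level with PGE was between 0.821 and 1.29 times that with LPS alone (95% interval). Cxcl2 differed by 0.13 ± 0.12 (limma adjusted p = 0.444; 0.912 to 1.32 times) and Cxcl1 by 0.18 ± 0.20 (limma adjusted p = 0.525; 0.840 to 1.52 times). With equal array medians the differences were 0.20 for Cxcl10 (limma adjusted p = 0.320), 0.29 for Cxcl2 (0.0823) and 0.34 for Cxcl1 (0.214). After quantile normalization they were 0.05, 0.10 and 0.19 in that order. The intervals above do not cover the choice of normalization. An adjusted p above the threshold does not show that the levels were the same. These genes were near the top of the arrays, and of the 718 genes at least as bright as Cxcl1 under LPS, 12.8% passed in this comparison. The figure was 10.2% of 265 for Cxcl10 and 11.4% of 44 for Cxcl2. The part of a ceiling of the signal in these differences was not tested.

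Cxcl11 had lower values with PGE, on arrays that did not overlap between the groups, as was so for 18.3% of all genes in the downward direction. Its difference was -0.30 ± 0.11 (limma adjusted p = 0.0653), and it was -0.22 after cyclic loess normalization (adjusted p = 0.227), -0.18 after quantile normalization (0.342) and -0.14 with equal array medians (0.338). Leaving out single arrays gave adjusted p-values from 0.0323, without untreated replicate 3, to 0.157, without LPS replicate 2. Cxcl9 differed by -0.26 ± 0.12 (limma adjusted p = 0.126), by -0.10 with equal array medians (0.572) and by -0.39 after cyclic loess normalization (0.0628). Without single arrays it ranged from -0.37 (LPS plus PGE replicate 3 left out, adjusted p = 0.0269) to -0.20 (LPS replicate 2 left out, 0.292). Both genes lie in the middle band of levels, for which the median change of all genes was -0.07. Cxcl3 differed by 0.34 ± 0.28 (limma adjusted p = 0.391), a value that depended on each LPS array: it was 0.73 without replicate 1 (adjusted p = 0.0396), 0.17 without replicate 2 (0.721) and 0.12 without replicate 3 (0.806). It was also 0.20 without LPS plus PGE replicate 1 (0.650) and 0.23 without LPS plus PGE replicate 4 (0.609). Cxcl5 differed by 0.27 ± 0.15 (limma adjusted p = 0.190), where dim genes as a whole had a median change of 0.14. Cxcl16 differed by -0.11 ± 0.08 (limma adjusted p = 0.333) and Cxcl14, also in the middle band, by -0.10 ± 0.15 (limma adjusted p = 0.635). In the high band of levels, with Cxcl16, Cxcl1, Cxcl2 and Cxcl10, the median change of all genes was -0.08.

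**Figure D2:**
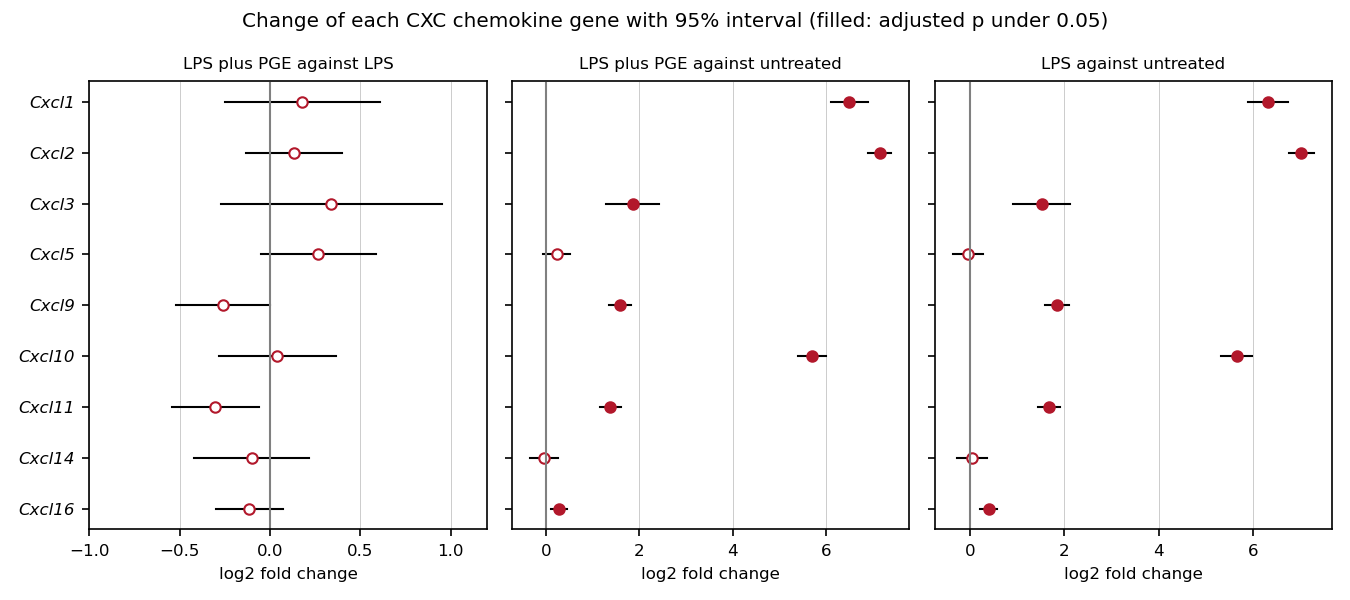
Log2 fold change (point) with 95% interval (line) of each CXC chemokine gene in LPS plus PGE against LPS, LPS plus PGE against untreated and LPS against untreated, with filled points for adjusted p under 0.05. The horizontal scales differ: changes with PGE span -0.30 to 0.34 with no filled point, and changes against untreated cells reach 7.16.

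By group, the order of the levels was therefore the same for Cxcl1, Cxcl2, Cxcl3 and Cxcl10, with LPS plus PGE at the top, LPS next and untreated last, and for Cxcl9, Cxcl11 and Cxcl16 LPS came first, LPS plus PGE next and untreated last. The order of the upper pair turned for Cxcl16 with equal array medians (LPS plus PGE minus LPS 0.04) and for Cxcl10 without LPS replicate 3 (-0.0032) or LPS plus PGE replicate 1 (-0.02). In each of these 7 genes the upper pair did not differ past the threshold and both stood apart from untreated cells. For Cxcl5 and Cxcl14 no neighbours in the order differed past the threshold.

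The genes lie in 2 clusters on mouse chromosome 5, apart from Cxcl14 and Cxcl16. In the RefSeq order the first cluster runs Cxcl5, Ppbp, Pf4, Cxcl3, Cxcl15, Cxcl1, Cxcl2. Strong risers and genes that did not pass were therefore next to each other, but several of the latter were dim. Group means were 2.94 to 3.04 for Cxcl15 and 3.16 to 3.35 for the flanking Rassf6, under the lower quartile of genes. Art3, in the second cluster, read 3.75 to 3.98, close to that quartile. Background was not measured, so at such levels a lack of change could not be told from a lack of signal. Cxcl15, between Cxcl3 and Cxcl1, changed by 0.09 ± 0.07 with LPS (limma adjusted p = 0.478), and the platelet chemokines Pf4 (0.19 ± 0.16, limma adjusted p = 0.501) and Ppbp (0.44 ± 0.19, limma adjusted p = 0.172) did not pass either. Of the flanking genes, Rassf6, Mthfd2l and Epgn changed by 0.15, 0.34 and -0.10 with LPS, and none passed. Mthfd2l, a mitochondrial folate enzyme gene, had an adjusted p of 0.0504 with LPS and passed under 8 of 20 alternatives. It was lower with LPS plus PGE than with LPS (-0.32 ± 0.10, limma adjusted p = 0.0430), a call lost under 8 of 20 alternatives, with adjusted p-values up to 0.245. The second cluster runs Cxcl9, Art3, Cxcl10, Cxcl11, and Art3, in the midst of it, changed by 0.15 ± 0.12 with LPS (limma adjusted p = 0.501). Next to it Nup54, a nuclear pore gene, rose with LPS (0.62 ± 0.09, limma adjusted p = 0.000704) and was lower with LPS plus PGE than with LPS (-0.49 ± 0.09, limma adjusted p = 0.00400). Sdad1, on the other side, did not pass with LPS (-0.12 ± 0.09, limma adjusted p = 0.438) and was lower with PGE (-0.44 ± 0.09, limma adjusted p = 0.00495). These neighbours were taken by position, after values had been seen.

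**Figure D3:**
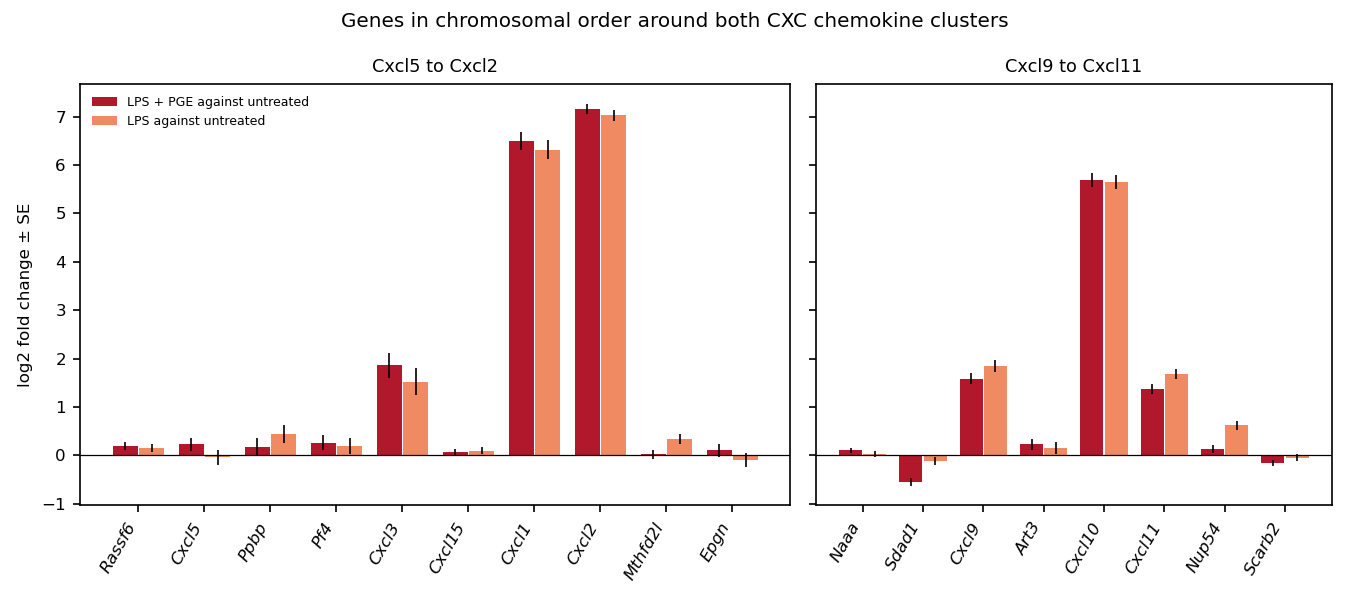
Log2 fold change ± SE (bars and lines) of measured genes in their chromosomal order around both CXC chemokine clusters, for LPS plus PGE against untreated and LPS against untreated; distances are not to scale. Cxcl1, Cxcl2 and Cxcl10 reach 5.65 or more, and Cxcl15 and Art3, which lie between rising genes, stay between 0.06 and 0.23. Cxcl5, Cxcl15, Rassf6 and Art3 were dim in all groups.

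GGGAATTTCC was also read across the genome against these arrays. Of the 28 genes with it in the window before a start, 19 were measured. Beside Cxcl1, Cxcl2 and Cxcl3, the other 16 had 5 rises and 3 falls with LPS and a median change of 0.13. Of all genes, 13.2% passed, 6.55% with a rise. With LPS plus PGE against LPS these 16 had 1 rise and 4 falls and a median change of -0.07, where 24.7% of all genes passed. The rises included those of Gbp5, a guanylate-binding protein (4.04 ± 0.14), and Nfkbia, the inhibitor of NF-kB (3.13 ± 0.06), and the falls that of Zfp84 (-1.15 ± 0.09). The other rises with LPS were smaller, those of Ccr3 (1.14 ± 0.10), Hpn (0.48 ± 0.14) and Trio (0.33 ± 0.08). The kinase gene Map3k7 had GGGAATTTCC too and did not pass (0.09 ± 0.08, limma adjusted p = 0.503). All these genes were named after their values were seen.

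Of the other genes of the pathway, the 6 remaining CXC ligands (Pf4, Ppbp, Cxcl12, Cxcl13, Cxcl15, Cxcl17) had no call by limma in any comparison. At an unadjusted p below 0.05 there was 1 in LPS against untreated, 1 in LPS plus PGE against LPS and 0 in LPS plus PGE against untreated, where 26.0%, 39.3% and 43.7% of all genes had one. For the lists that follow, 13.2% of all genes passed with LPS and 31.7% with LPS plus PGE, each against untreated. With PGE against LPS 24.7% passed, and no list was tested against these shares. Among 9 measured CXC and atypical chemokine receptors, LPS gave 1 rise and 1 fall, and PGE on top of LPS 1 rise and 1 fall. Cxcr4, the bright receptor of Cxcl12, fell with LPS (-0.51 ± 0.06, limma adjusted p = 9.19e-05) and was higher with LPS plus PGE than with LPS (0.31 ± 0.06, limma adjusted p = 0.00413). Cxcr2, the receptor of Cxcl1 and Cxcl2, rose with LPS (0.44 ± 0.09, limma adjusted p = 0.00460) and was lower with PGE (-0.45 ± 0.09, limma adjusted p = 0.00390), at mean levels of 3.94 in LPS plus PGE, 4.39 in LPS and 3.95 in untreated arrays, close to the lower quartile of genes. LPS plus PGE against untreated gave no rise and 1 fall, that of Cxcr4 (-0.19 ± 0.06, limma adjusted p = 0.0196), lost after cyclic loess normalization (0.113) or with equal array medians (0.364), and without LPS plus PGE replicate 2 (0.0560) or without replicate 3 (0.0535) or 4 (0.0542) of the untreated group.

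All 10 measured NF-kB subunits and inhibitors rose with LPS, with a list median of 1.45 against -0.015 over all genes, led by Nfkbiz (5.57 ± 0.12) and the ubiquitin editor Tnfaip3 (4.30 ± 0.08). All 10 rose with LPS plus PGE against untreated too. With PGE against LPS alone, 2 of the 10 rose, the inhibitor Nfkbie (0.70 ± 0.08, limma adjusted p = 0.000176) and the subunit Rel (0.31 ± 0.08, limma adjusted p = 0.0133). The list median was 0.04, beside 0.04 for the 9 CXC genes and -0.005 over all genes.

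The interferon axis, of 11 measured genes, had 3 rises and 1 fall with LPS, 3 rises and 3 falls with LPS plus PGE against untreated, and 0 rises and 4 falls with PGE against LPS. Over all genes 13.2%, 31.7% and 24.7% passed in that order. Irf1, a transcription factor of interferon responses, was lower with PGE (-0.98 ± 0.09, limma adjusted p = 2.44e-05), as was Ifnb1, the gene of interferon-beta (-0.54 ± 0.15, limma adjusted p = 0.0220). The Ifnb1 call was lost after quantile normalization (0.0948) or with equal array medians (0.0590), and without LPS replicate 2 (0.0740), LPS replicate 3 (0.0724) or LPS plus PGE replicate 4 (0.0505). A further fall, that of Irf8, a myeloid transcription factor (-0.24, limma adjusted p = 0.0339), was lost under 10 of 20 alternatives, with adjusted p-values up to 0.437. Irf1 and Ifnb1 had risen with LPS, by 2.58 ± 0.09 and 3.59 ± 0.15, while Stat2, a transducer of interferon signals, fell (-1.03 ± 0.06). Of 12 early interferon-stimulated genes, 7 rose and 1 fell with LPS, 8 rose and 1 fell with LPS plus PGE against untreated, and 2 rose and 2 fell with PGE against LPS. The fall in both comparisons with untreated cells was that of Mx1, an antiviral GTPase (LPS plus PGE -0.30, limma adjusted p = 0.0498; LPS -0.40, limma adjusted p = 0.0397), and it was lost under 15 and 12 of 20 alternatives in that order. With LPS the largest were the rises of Gbp5 and Ccl5 (3.78 ± 0.21), a chemokine. With PGE, Gbp2 was lower (-0.71 ± 0.12, limma adjusted p = 0.00194) and Isg15, a ubiquitin-like protein, higher (0.68 ± 0.17, limma adjusted p = 0.0141; 0.0529 without LPS replicate 3). The other 2 calls with PGE, those of Ifit2 (-0.48 ± 0.16, limma adjusted p = 0.0488) and Oasl1 (0.47 ± 0.15, limma adjusted p = 0.0399), were lost under 14 and 8 of 20 alternatives, with adjusted p-values up to 0.174 and 0.138.

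**Figure D4:**
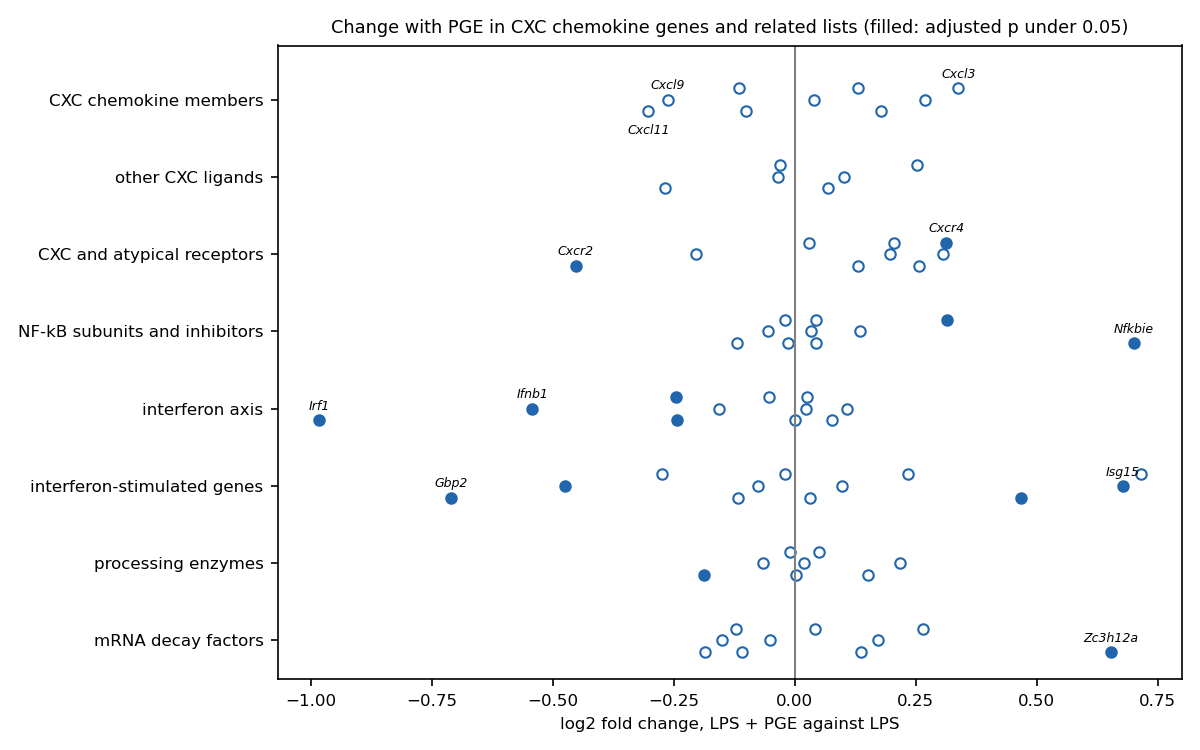
Log2 fold change in LPS plus PGE against LPS (horizontal axis) of the 9 CXC chemokine genes and of each measured gene of 7 related lists (rows), with filled points for adjusted p under 0.05; points are staggered for legibility. The row of the CXC genes has no filled point and spans -0.30 to 0.34, while Irf1 lies at -0.98 and Nfkbie at 0.70.

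Among 8 enzymes known to cut or shed chemokines, 2 rose with LPS, the protease genes Ctsc (0.31 ± 0.07, limma adjusted p = 0.00764) and Adam17 (0.24 ± 0.06, limma adjusted p = 0.0134), and Adam10, which sheds Cxcl16 and is named after its value was seen, did not pass (-0.11 ± 0.06, limma adjusted p = 0.262). Ctsc alone rose with LPS plus PGE against untreated (0.46 ± 0.06), and Adam17 alone was lower with PGE than with LPS (-0.19 ± 0.06, limma adjusted p = 0.0302; lost under 9 of 20 alternatives, with adjusted p-values up to 0.785). Of the 2 rises with LPS, that of Adam17 was lost without LPS replicate 2 (0.0576) or with equal array medians (0.0875). Of 10 mRNA decay factors, some of which are known to act on chemokine transcripts, 5 rose with LPS, 5 rose and 1 fell with LPS plus PGE against untreated, and 1 rose with PGE against LPS. The fall was that of Khsrp, a factor for AU-rich transcripts (-0.20, limma adjusted p = 0.0364), lost under 10 of 20 alternatives, with adjusted p-values up to 0.390. The rise with PGE was that of Zc3h12a, an endonuclease that degrades inflammatory transcripts (0.65 ± 0.06, limma adjusted p = 2.61e-05), after a rise of 2.09 ± 0.06 with LPS. Zfp36, which marks AU-rich transcripts for decay, rose by 2.05 ± 0.10 with LPS and differed by 0.27 ± 0.10 with PGE, a value named after it was seen (limma adjusted p = 0.0677).

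The genes most like a CXC gene in pattern were sought among 593 genes whose group means span at least 1, by Pearson's correlation over the 11 arrays, which share the step between treated and untreated cells. Tnfaip3 (r = 0.9997) and Nfkbia (0.9985) came closest to Cxcl2, and Cd83 (0.9978) and Dusp1 (0.9973) to Cxcl1. For Cxcl10 they were Zc3h12c (0.9984) and Clec4e (0.9979), for Cxcl3 Rcan1 (0.9668) and Csf2 (0.9581), for Cxcl9 Rasgef1b (0.9903) and Cflar (0.9871), for Cxcl11 Klhl25 (0.9901) and Slfn2 (0.9885), and for Cxcl16 Ifi205 (0.9179) and Gpr85 (0.9149). All 14 of these genes rose with LPS, by 1.12 (Rcan1) to 4.30 (Tnfaip3), which choice by correlation with rising genes makes likely. In LPS plus PGE against LPS, where no CXC gene passed, some of the 14 did (limma adjusted p from 0.0129 to 0.04995). They were Cd83 (0.26), Dusp1 (0.23), Rasgef1b (-0.23), Ifi205 (-0.77) and Gpr85 (-0.57). The calls of Rasgef1b and Ifi205 were lost under 15 and 14 of 20 alternatives, and the others under 1 to 3. Between CXC genes, Cxcl1, Cxcl2 and Cxcl10 correlated at 0.994 to 0.995 over all arrays. Around the group means the correlations of these 3 genes were -0.44 to 0.04, so their likeness lay in the step between groups.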

How the data were processed

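Macrophage RNA was measured on Affymetrix mouse gene arrays from 250 ng of total RNA per sample. The deposited values are log2 intensities per probe set. The log2 scale was inferred from RMA, named with Affymetrix Power Tools, R 2.13.1 and Partek in the submitters' processing notes, and from their range (1.20 to 13.81); raw array files were not used, and no source here names a genome build. Of 35309 probe sets, 21143 carried 1 gene symbol (12296 none, 1870 several), and the one with the highest mean was kept per gene (18755 genes). Symbols were checked by gene identifier for 21110 probe sets, and 0 changed. A group-means model was fitted with limma 3.58.1 in R 4.3.3 to all 11 arrays; the threshold was 0.05 on p-values adjusted by Benjamini and Hochberg's method. Figures used matplotlib 3.10.9 and promoter windows were searched in Python 3.11.15. The fit was tested on simulated data.

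The CXC genes, related lists, marker lists and alternatives were chosen with earlier results of these data known. From each list the 2 largest calls in each direction were eligible to be named. Genes alike in pattern were the 2 with the highest correlation, leaving out predicted and microRNA genes. The alternatives were quantile, cyclic loess and equal-median normalization, a trended robust variance, fits of 2 groups alone, dropping the dimmest genes (levels up to 4.31), testing all probe sets, averaging the probe sets of a gene, requiring 2-fold, blocking on replicate number, and omitting single arrays.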

Additional observations from a re-analysis of the deposited data

Results flagged for a closer look

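In untreated cells, Cxcl5 on replicate 3 (2.91) stood apart below the other 3 arrays (3.20, 3.20 and 3.25) by more than the 95% limit for a group of 4. It was the 1 such array among 18 groups of 4 checked for the 9 genes, and chance gives about 1 in 20. Groups of 3 arrays were not checked.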

How the results depend on the processing

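The 2-fold requirement is not among the 20 alternatives counted for a change. Over 27 changes of the 9 genes and 537 alternative values, 532 kept their side of the threshold, 1 lost and 4 gained a call, and no called change reversed. With 2-fold required, Cxcl16 also lost its call in both comparisons with untreated cells. In both comparisons with untreated cells, 6 or 7 of 9 genes passed under every alternative, the 6 arising from the 2-fold threshold or, in LPS plus PGE against untreated, also without LPS plus PGE replicate 1. In LPS plus PGE against LPS, 1 of 9 passed with equal array medians (Cxcl5, 0.43, adjusted p = 0.0486), and 0 or 1 when single arrays were left out; the cause was not tested. Equal array medians moved the median of all genes there to 0.154, and calls split into 5850 rises and 718 falls in place of 2225 and 2416. In LPS plus PGE against untreated, 3917 genes passed after cyclic loess normalization, against 5946. In LPS plus PGE against LPS, 4641 genes passed, but 2358 after quantile and 2123 after cyclic loess normalization and 2945 without LPS replicate 3. Requiring 2-fold left 134 genes in LPS plus PGE against LPS, 557 in place of 5946 in LPS plus PGE against untreated, and 362 in place of 2483 in LPS against untreated; over all probe sets LPS against untreated gave 3723. Same-numbered arrays deviated together in 7 of 10 pairs (correlations over 0.1, range -0.02 to 0.21). The 30 pairs with different numbers ranged from -0.14 to 0.09, so none of them passed 0.1. Arrays of the same number may therefore share a part of their spread. The labels state no block, so the main fit has no replicate block, and a fit with it is given below. Since 1 LPS array was left out by the authors, LPS numbers 1 to 3 may not match those of the other groups, which limits both this check and the block. With a replicate block 0 of the 9 genes passed in LPS plus PGE against LPS and 7 in each comparison with untreated cells, with 4698 genes in all, 6124 (LPS plus PGE) and 2454 (LPS); no call of the 9 changed. Dropping the dimmest genes removed, among others, Cxcl5, Cxcr2, Cxcl15, Rassf6, Epgn and Art3. Low intensities limit these genes and untreated Cxcl9.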

Other observations

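A further probe set, annotated to both Zmynd15 and Cxcl16 and so left out above, read 7.34 ± 0.16 (SD, n = 4) in LPS plus PGE, 7.52 ± 0.15 (n = 3) in LPS and 7.22 ± 0.10 (n = 4) in untreated arrays. Its change with LPS was 0.29 ± 0.10 (limma adjusted p = 0.109 over all probe sets).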
